A study of Mus musculus with 38 samples.

Results

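The inducible heat shock chaperones described here are 10 genes taken by name from a count table of 54532 mouse genes: Hspa1a, Hspa1b, Hspa8, Hsph1, Dnajb1, Dnaja1, Bag3, Hsp90aa1, Hspb1 and Hspe1. All 10 passed the filter on low counts and were tested among 22798 genes. They were measured by RNA sequencing in oligodendrocyte precursor cells (OPCs), the glia that mature into myelinating oligodendrocytes, from the forebrain of mice at postnatal days 6 to 7. KO cells came from NG2:Cre+;Bmal1fl/fl mice and WT cells from NG2:Cre-;Bmal1fl/fl mice, so both genotypes carry floxed Bmal1 alleles and the genotypes differ in the Cre transgene. Cells were taken at zeitgeber time (ZT) 0, when the lights come on, and at ZT6, ZT12, when they go off, and ZT18. There were 7 KO and 5 WT libraries at ZT6, 4 KO and 6 WT libraries at ZT12, and 4 of each genotype at ZT0 and at ZT18. The NG2 promoter that drives Cre is active in OPCs and also in other cells, such as pericytes. The deletion takes the DNA-binding domain of Bmal1 and not the whole gene, and no Cre-positive mice with intact Bmal1 were compared. Each library held the RNA of 2 pooled mice, and cells were collected by removal of microglia and endothelial cells on lectin plates and capture on an antibody to PDGFRα.

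Heat shock chaperones hold unfolded proteins, help them refold or pass them on for degradation. HSF1, the main transcription factor of the heat shock response, is kept inactive by chaperones in unstressed cells. When unfolded proteins draw those chaperones away, HSF1 trimerises, binds heat shock elements made of repeated GAA units in alternating orientation, and drives the genes described here. Some of them, such as Hspa1a, Hspa1b and Hspb1, are almost silent without stress, while others, such as Hspa8 and Hsp90aa1, are abundant at all times and are raised further.

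The 250 bases before the annotated start of 5 members are printed below, because these members cover the range of the results: the 4 members with the widest range of CPM over libraries, Hspa1a, Hspa1b, Hspb1 and Bag3, and Hspe1, for which time of day was called in neither genotype. The sequences are RefSeq's for GRCm38.p6, run 5′ to 3′ along the gene, and leave out bases that lie inside the gene body of the deposited table, which were 16 bases of Hspe1. Capitals mark heat shock elements of 2 or more units, searched as GAANNTTC and TTCNNGAA, which covers both strands. Hspa1a lies at chr17:34972157-34972406 on the minus strand, Hspa1b at chr17:34959239-34959488 on the minus strand, Hspb1 at chr5:135887669-135887918 on the plus strand, Hspe1 at chr1:55087898-55088131 on the plus strand, and Bag3 at chr7:128523333-128523582 on the plus strand.
Hspa1a: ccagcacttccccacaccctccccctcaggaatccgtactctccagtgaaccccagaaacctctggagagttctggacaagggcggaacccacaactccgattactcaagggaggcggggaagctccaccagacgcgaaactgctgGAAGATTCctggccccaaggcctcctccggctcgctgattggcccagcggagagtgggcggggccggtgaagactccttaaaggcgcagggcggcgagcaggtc
Hspa1b: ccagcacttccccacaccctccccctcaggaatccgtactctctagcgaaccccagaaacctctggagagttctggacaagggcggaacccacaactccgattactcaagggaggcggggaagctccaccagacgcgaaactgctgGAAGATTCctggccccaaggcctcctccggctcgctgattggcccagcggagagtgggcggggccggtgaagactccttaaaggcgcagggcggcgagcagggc
Hspb1: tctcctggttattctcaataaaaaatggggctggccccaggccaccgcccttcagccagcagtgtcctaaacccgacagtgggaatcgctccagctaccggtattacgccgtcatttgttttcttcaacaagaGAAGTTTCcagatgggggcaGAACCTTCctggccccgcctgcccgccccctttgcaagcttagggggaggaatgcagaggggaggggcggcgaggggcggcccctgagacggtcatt
Hspe1: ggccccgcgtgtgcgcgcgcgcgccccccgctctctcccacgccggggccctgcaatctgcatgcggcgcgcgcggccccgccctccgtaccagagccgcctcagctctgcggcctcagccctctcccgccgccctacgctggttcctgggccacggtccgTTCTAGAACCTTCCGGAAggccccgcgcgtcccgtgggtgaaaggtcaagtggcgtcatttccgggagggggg
Bag3: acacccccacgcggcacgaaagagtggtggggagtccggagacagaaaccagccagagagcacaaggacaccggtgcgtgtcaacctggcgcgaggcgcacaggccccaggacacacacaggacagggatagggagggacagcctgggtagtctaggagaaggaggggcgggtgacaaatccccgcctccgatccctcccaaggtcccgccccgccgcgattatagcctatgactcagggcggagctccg

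The Hspa1a and Hspa1b windows differ at 3 of 250 bases and carry the same match, GAAGATTC, at 104 to 97 bases before the start. Hspb1 carries separate matches at 117 to 110 and at 97 to 90 bases before the start. In Hspe1, 3 matches overlap between 89 and 72 bases before the start, and they make up a longer form, in which a further GAA or TTC unit follows the first 2 units at the same spacing. No match was found in the Bag3 window, which says only that these letters are not in it. RefSeq entries were used for 8 of the 10 members and gave 12 windows, and Hspa8 and Hsp90aa1 had none. At least 1 window of 6 members held a match of the shorter form: the 4 above, Hsph1 and Dnaja1. At least 1 window held that form in 14.5% of 27025 genes with an entry. By window it is in 12.8% of 32851, and the longer form, found in Hspe1 alone among the members, is in 0.466% of them. The E-box CACGTG, the sequence that BMAL1 and its partner CLOCK bind, was in 1 of the 12 windows, a window of Hsph1, and is in 6.02% of all windows. A match of letters is a description and does not show binding.

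Library totals ranged from 19.4 to 39.0 M counts with a median of 25.9 M, and the genes tested held 99.95% of all counts. In 8 libraries, genes of ribosomal RNA took at most 0.263% of counts, against at least 0.409% in the other 30. These low-rRNA libraries are KO ZT6 replicate 7, KO ZT18 replicates 1 to 4 and WT ZT12 replicates 4 to 6, so at ZT18 the low-rRNA class and the genotype cannot be told apart. OPC markers summed to between 13066 and 19888 counts per 1e6 (CPM, on edgeR's effective library sizes) in every library, but microglia markers summed to between 4684 and 20786 CPM, so RNA of microglia was present in every library. In bulk RNA a higher level in each cell and a larger share of cells that express a gene cannot be told apart. Arntl, the gene symbol of Bmal1, averaged 19.2 to 22.0 CPM in the KO groups and 20.6 to 25.6 CPM in the WT groups, and was not called (mean log2 difference of -0.17 ± 0.06 SE, adjusted p = 0.183). Its count also covers the exons that the deletion leaves, so it does not check the labels.

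Per kilobase of gene length, the 10 members differed widely in abundance. The medians over all 38 libraries, as CPM per kilobase (RPKM), were 338 for Hspa8, the constitutive HSP70, and 145 for Hsp90aa1, the inducible form of cytosolic HSP90. Hspe1, the mitochondrial cochaperonin that caps the HSPD1 ring, had 38.7 RPKM. The median was 37.0 RPKM for Hspa1b and 21.6 RPKM for Hspa1a, which encode stress-inducible HSP70. The J-domain proteins that bring clients to HSP70 had 24.9 RPKM (Dnajb1) and 23.3 RPKM (Dnaja1). Hsph1, an HSP110 that exchanges nucleotide on HSP70, had 14.5 RPKM. The lowest medians were 7.12 RPKM for Bag3, an HSP70 cochaperone that links it to selective autophagy, and 6.61 RPKM for Hspb1, a small heat shock protein that holds unfolded proteins without ATP. The order by variation was different. Between the lowest and the highest library, the CPM of Hspa1b differed 5445-fold, that of Hspa1a 752-fold, that of Hspb1 211-fold and that of Bag3 20.5-fold, while the other 6 members ranged from 2.39-fold (Dnaja1) to 6.68-fold (Dnajb1).

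**Figure D1:**
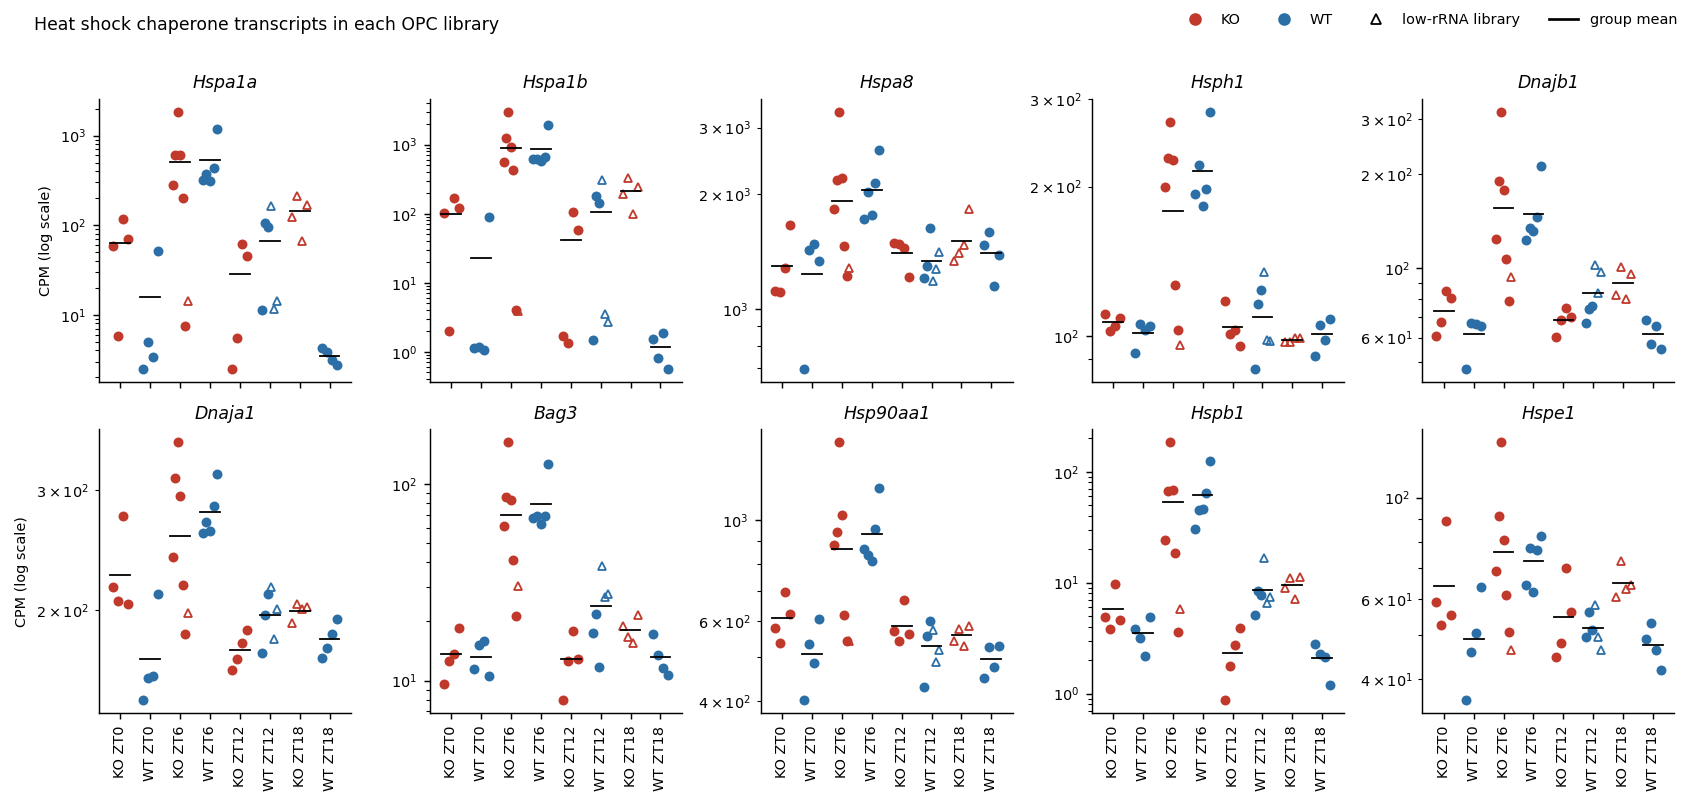
CPM of each member (log axis) in every library, by genotype and zeitgeber time, with KO left of WT at each time. Points are libraries, open triangles are the 8 low-rRNA libraries and black lines are group means; at ZT6, 5 of 7 KO libraries and all 5 WT libraries lie high for Hspa1b, and at ZT18 the 4 KO libraries lie between 100.3 and 324 CPM, all above the WT libraries.

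Hspa1b had 101, 2.01, 167 and 119.5 CPM in the KO libraries of ZT0, in order of replicate number. In the 7 KO libraries of ZT6 its lowest, median and highest values were 3.89, 564 and 3017 CPM. It had 1.71, 1.35, 106.6 and 57.8 CPM in KO at ZT12, and 193, 324, 100.3 and 245 CPM in KO at ZT18. The KO libraries are thus divided at 3 of the 4 times, with at least 1 library near the floor at ZT0, ZT6 and ZT12 and none at ZT18. In WT, Hspa1b had 1.13, 1.16, 1.06 and 88.2 CPM at ZT0, and 621, 611, 577, 672 and 1899 CPM at ZT6. At ZT12 the lowest, median and highest of 6 WT libraries were 1.48, 72.9 and 304 CPM, and at ZT18 the WT libraries had 1.52, 0.813, 1.87 and 0.554 CPM. Only at ZT6 were all WT libraries high, and only at ZT18 were all of them low.

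Over all libraries Hspa1b was split in level. It lay at or under 3.97 CPM in 15 libraries and at or above 57.8 CPM in 23, with none between. The split was made after the values were seen. In KO the higher side held 3 of 4 libraries at ZT0, 5 of 7 at ZT6, 2 of 4 at ZT12 and 4 of 4 at ZT18. In WT it held 1 of 4 at ZT0, 5 of 5 at ZT6, 3 of 6 at ZT12 and 0 of 4 at ZT18. It held 5 of the 8 low-rRNA libraries and 18 of the other 30. By group median the order was WT ZT6 with 621 CPM, KO ZT6 with 564, KO ZT18 with 219, KO ZT0 with 110.2, WT ZT12 with 72.9, KO ZT12 with 29.7, WT ZT18 with 1.17 and WT ZT0 with 1.15 CPM. Every pair of neighbours in this order overlapped in range. KO ZT18 and WT ZT18, which are not neighbours, did not overlap.

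Hspa1a followed Hspa1b closely. It had 58.5, 5.76, 119 and 70.2 CPM in KO at ZT0, a lowest, median and highest of 7.51, 283 and 1849 CPM in KO at ZT6, 2.49, 5.56, 62.0 and 45.3 CPM in KO at ZT12, and 125, 210.2, 66.4 and 169 CPM in KO at ZT18. In WT it had 2.46, 5.01, 3.41 and 51.9 CPM at ZT0, 322, 373, 308, 438 and 1192 CPM at ZT6, a lowest, median and highest of 11.4, 54.9 and 163 CPM at ZT12, and 4.29, 3.82, 3.13 and 2.74 CPM at ZT18. The same libraries were high as for Hspa1b, and across the 38 libraries the correlation of their log2 CPM was 0.983 (Pearson's r, a description, since all values come from the same libraries). The balance of the pair changed with the level. The ratio of Hspa1b to Hspa1a counts was 0.129 to 0.684 (median 0.304) in the 15 libraries with low Hspa1b and 1.27 to 2.11 (median 1.64) in the 23 with high Hspa1b. The pair lies on chromosome 17 and the open reading frames of 1926 and 1929 bases were 99.4% identical, with an identical run of up to 638 bases. After the open reading frame, 71.6% of the bases aligned without a gap were identical, and 47.3% of all columns of the alignment, gaps included. The sources used here do not say how reads that match both were counted, so the split between the genes is uncertain.

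**Figure D2:**
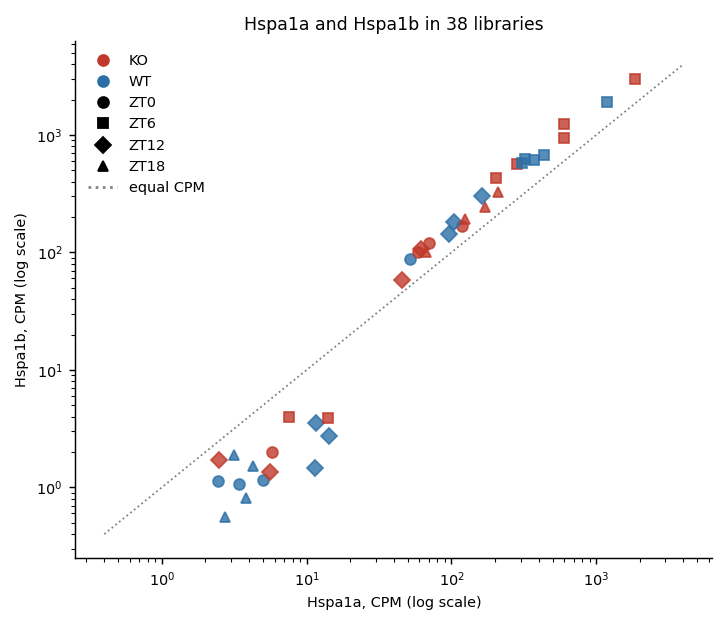
Hspa1b against Hspa1a in CPM, both axes logarithmic, 1 point per library, with KO and WT in different colours and a dotted line where the CPM are equal. Below the line, 15 libraries have Hspa1b at or under 3.97 CPM; above it, 23 libraries have 57.8 CPM or more.

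Time of day, tested as any difference among the 4 times, was called in KO for 8 of the 10 members, when 21.9% of all genes tested were called (quasi-likelihood F-test of edgeR, with p adjusted over all genes by the Benjamini-Hochberg method). Hspa8 (adjusted p = 0.0745) and Hspe1 (adjusted p = 0.220) were not. In WT it was called for 9 of the 10 members, when 4.91% of all genes were called, and again not for Hspe1 (adjusted p = 0.0987). Every called member had its highest group mean at ZT6 in both genotypes. Among all genes called for time, the highest mean was at ZT6 for 25.1% in KO and for 62.1% in WT, so a peak at ZT6 was the more common one in WT and not in KO.

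**Figure D3:**
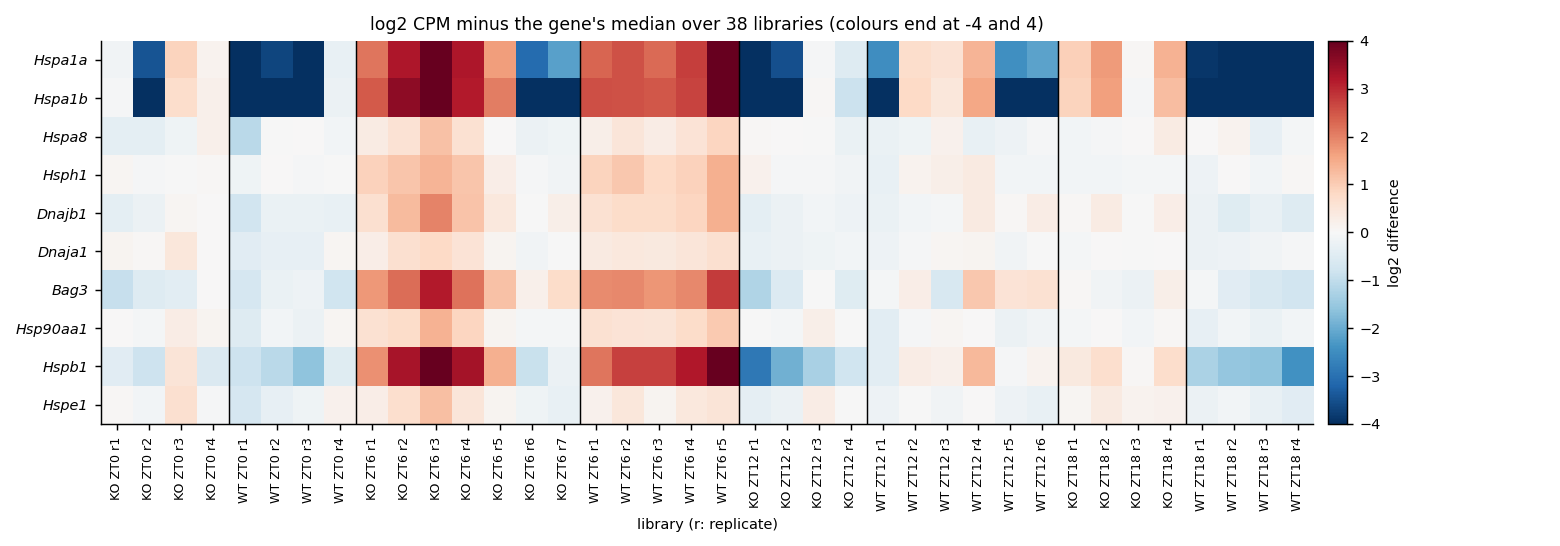
Level of each member (rows) in each of the 38 libraries (columns, grouped by genotype and time), as log2 CPM minus the gene's median over all libraries, with colours capped at both ends. At ZT6, 5 of the 7 KO libraries and the 5 WT libraries are above the median in most rows, and KO ZT6 replicates 6 and 7 are not.

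The inducible HSP70 genes differed widely across the day, and the constitutive Hspa8 far less. In KO, the mean Hspa1b level at ZT6, 884 ± 1043 CPM (SD, n = 7), was 9.07 times that at ZT0, 21.1 times that at ZT12 and 4.10 times that at ZT18. In WT the ZT6 mean was 876 ± 573 CPM (SD, n = 5), which was 38.3 times that at ZT0, 8.26 times that at ZT12 and 737 times that at ZT18. The adjusted p for time was 0.0497 in KO and 0.00205 in WT for Hspa1b, and 0.0106 in KO and 0.000147 in WT for Hspa1a. With limma-voom none of these was called (adjusted p = 0.195 in KO and 0.303 in WT for Hspa1b, and 0.0909 in KO and 0.0613 in WT for Hspa1a). The KO call for Hspa1b was also lost with the low-rRNA covariate and with only the groups compared, and held in 11 of 38 fits with 1 library left out (adjusted p from 0.00615 to 0.195 over all alternatives); it ended without any 1 library of KO ZT0, KO ZT18, WT ZT6 or WT ZT18, without KO ZT6 replicate 1, 2, 3, 4 or 5, without KO ZT12 replicate 1, 2 or 4, and without WT ZT12 replicate 2 or 3. Hspa8, whose product does the everyday work of HSP70, had 1828, 2184, 3307, 2213, 1465, 1223 and 1278 CPM in KO at ZT6, and 1727, 2031, 1769, 2143 and 2614 CPM in WT at ZT6. Of the 7 KO values 3 exceed the highest of the other 12 KO libraries, 1832 CPM, while the WT values all lie above the 14 other WT libraries, whose highest had 1636 CPM. The WT call for Hspa8 (adjusted p = 0.0484, from 0.00765 to 0.187 over all alternatives) ended with RLE size factors, with the low-rRNA covariate and without the low-rRNA libraries. With 1 library left out it held in 7 of 38 fits, those without KO ZT0 replicate 4, KO ZT6 replicate 3, 5, 6 or 7, WT ZT0 replicate 3 or WT ZT12 replicate 3.

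The cochaperones of HSP70 were also highest at ZT6. Bag3 had 61.3, 85.7, 163, 83.1, 41.1, 21.2 and 30.2 CPM in KO at ZT6, and 67.2, 68.6, 62.8, 68.7 and 127 CPM in WT at ZT6. Of the KO values 6 of 7 lie above the 21.6 CPM of the highest other KO library, and all WT values above the 38.3 CPM of the highest other WT library. The adjusted p for time was 4.19e-06 in KO and 1.17e-06 in WT. Dnajb1, whose product also works with HSP70 to switch HSF1 off, had 124, 190.5, 317, 178, 107, 78.8 and 93.5 CPM in KO at ZT6, and 123, 134, 132, 145.5 and 213 CPM in WT at ZT6. In KO 5 of 7 ZT6 values are above the other times, and in WT all 5 are. Its ZT6 mean was 2.12, 2.28 and 1.74 times the mean at ZT0, ZT12 and ZT18 in KO, and 2.43, 1.80 and 2.43 times in WT (adjusted p for time 0.000301 in KO and 0.000181 in WT).

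Hsph1 averaged 179 ± 69.3 CPM in KO at ZT6 (SD, n = 7) and 216 ± 40.4 CPM in WT at ZT6 (SD, n = 5), against group means of 98.1 to 106.6 CPM at the other times in KO and 100.7 to 109 CPM in WT. Its 3 other groups in each genotype thus hardly differed in mean, and the difference over the day lay at ZT6 (adjusted p 0.000709 in KO and 2.92e-05 in WT). Dnaja1 had the smallest range of CPM over single libraries, 2.39-fold. Its ZT6 mean of 257 ± 63.3 CPM in KO was 1.14, 1.47 and 1.29 times that at ZT0, ZT12 and ZT18, and its ZT6 mean of 278 ± 23.7 CPM in WT was 1.64, 1.42 and 1.54 times (adjusted p for time 0.00675 in KO and 0.000506 in WT).

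Hsp90aa1, whose product folds kinases and steroid receptors and also restrains HSF1, had 880.0, 942, 1483, 1028, 618, 542 and 542 CPM in KO at ZT6, and 864, 839, 815, 956 and 1178 CPM in WT at ZT6. Of the KO values 4 of 7 exceed the highest other KO library, 695 CPM, and all 5 WT values exceed the other 14 WT libraries, the highest of which had 606 CPM. The Hsp90aa1 call for time in KO (adjusted p = 0.0111) ended without KO ZT6 replicate 3 and with only the groups compared (at most 0.0550), and that in WT had an adjusted p of 0.000389. Hspb1 had 24.4, 67.3, 184, 68.5, 18.3, 3.62 and 5.81 CPM in KO at ZT6, and 30.4, 45.3, 45.7, 63.8 and 126 CPM in WT at ZT6. Outside ZT6 it lay at or under 11.2 CPM in KO and 16.7 CPM in WT. Its ZT6 mean was 9.20, 23.02 and 5.56 times the mean at ZT0, ZT12 and ZT18 in KO, and 17.7, 7.17 and 29.4 times in WT (adjusted p for time 2.52e-05 in KO and 1.45e-06 in WT). In KO these ratios were above those of Hspa1a and Hspa1b at every time, and in WT below them. With limma-voom the Hspb1 call in KO was lost (adjusted p = 0.0770). Hspe1, the only mitochondrial chaperone of the list, had 68.9, 91.1, 132, 80.7, 61.1, 50.8 and 46.3 CPM in KO at ZT6, and 64.3, 77.6, 62.1, 77.0 and 82.5 CPM in WT at ZT6. Here 2 of 7 KO values and 4 of 5 WT values lay above the other times, and time was called in neither genotype.

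KO ZT6 was divided. Replicates 1 to 4 had high values for most members. Replicate 5 exceeded all libraries of the other KO times for Hspa1b, Hsph1, Dnajb1, Bag3 and Hspb1. It did not for Hspa1a, Hspa8, Dnaja1, Hsp90aa1 and Hspe1. Replicates 6 and 7 had 3.97 and 3.89 CPM of Hspa1b and 3.62 and 5.81 CPM of Hspb1. Their Hsph1, Dnajb1, Hsp90aa1 and Hspe1 lay within the range of the other KO times. Bag3 was at 30.2 CPM in replicate 7, above the 21.6 CPM of the highest other KO library. Replicate 7 is a low-rRNA library and replicate 6 is not. The summed level of 23 immediate early genes, which respond quickly to growth signals and stress, was 13392 and 19331 CPM in these libraries, against 11360 to 20929 CPM in KO ZT6 replicates 1 to 5, and 13080 to 16146 CPM in WT at ZT6. The immediate early sums of these libraries lay within the range of the other KO libraries of ZT6, while their member sums lay below it. WT ZT12 replicates 5 and 6, both low-rRNA, had low Hspa1b, 3.52 and 2.74 CPM, beside immediate early sums of 17650 and 20448 CPM. The immediate early sums of WT ZT12 ran from 6499 to 20448 CPM. Without KO ZT6 replicates 6 and 7, a choice made after their values were seen, time in KO was called for 10 of 10 members. Leaving out libraries with low members raises the ZT6 mean by itself, so no conclusion is drawn from that count.

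**Figure D4:**
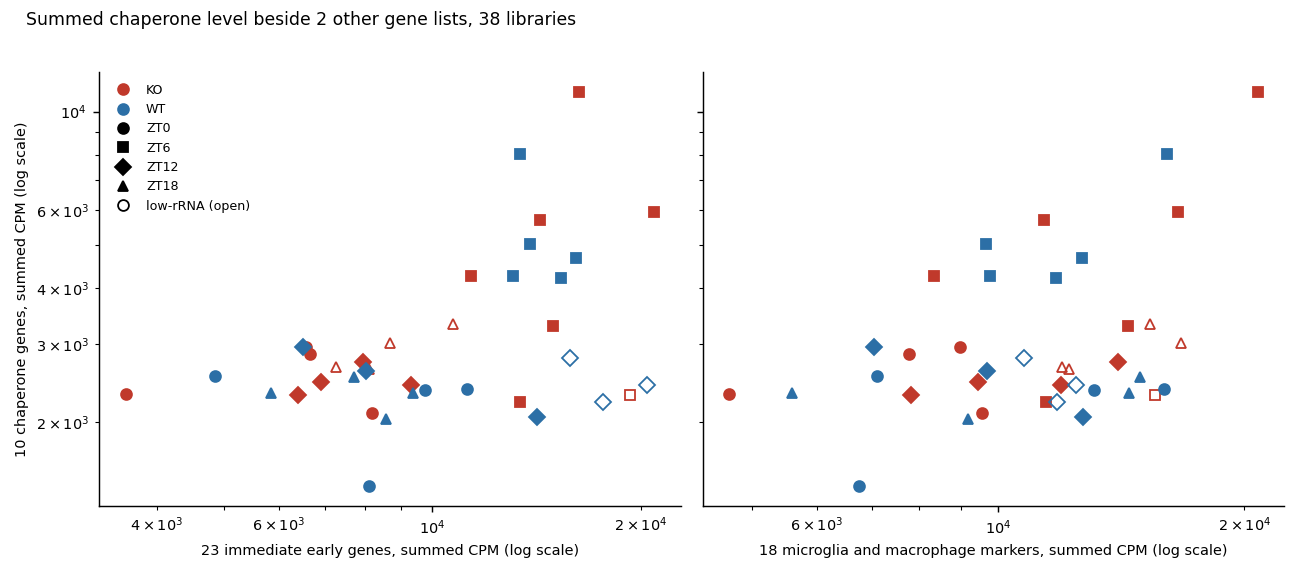
Summed CPM of the 10 members against the summed CPM of 23 immediate early genes and of 18 microglia markers, 1 point per library, open where the library is low-rRNA. KO ZT6 replicates 6 and 7 have member sums of 2218 and 2307 CPM beside immediate early sums of 13392 and 19331 CPM.

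In each genotype, the library with the highest summed members also had the highest microglia sum. The library with the highest summed members, KO ZT6 replicate 3 with 11075 CPM, also had the highest microglia sum of all, 20786 CPM. Among WT libraries of ZT6, replicate 5 had the highest members, 8032 CPM, and the highest microglia sum, 16070 CPM. The microglia sums ran from 8343 to 20786 CPM in KO and from 9668 to 16070 CPM in WT at ZT6, and no defining microglia marker was at 0 in any library. Time of day was called for 11 of 18 microglia markers in KO, of which 3 had their highest mean at ZT6 and 8 at ZT18, and for 0 of 18 in WT. Mean microglia sums were 14058 CPM in KO at ZT18 and 14076 CPM in KO at ZT6, beside mean member sums of 2906 and 4972 CPM. In WT at ZT0 the microglia sum reached 15932 CPM, while member sums reached at most 2541 CPM. The part of microglia in the chaperone values was not tested.

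KO and WT were compared at each time. At ZT18 2 of 10 members were higher in KO, Hspa1a and Hspa1b, when 2.14% of all genes were called and 1.39% were called higher in KO. Hspa1b, with the values given above, averaged 216 ± 94.0 CPM in KO and 1.19 ± 0.610 CPM in WT (SD, n = 4 each), a log2 difference of 7.50 ± 1.95 SE (adjusted p = 0.0352). Hspa1a averaged 143 ± 61.6 CPM in KO and 3.49 ± 0.692 CPM in WT, a log2 difference of 5.35 ± 1.29 SE (adjusted p = 0.0244). All 4 KO libraries exceeded all 4 WT libraries for both genes. The lowest KO library had 66.4 CPM of Hspa1a and the highest WT library 4.29 CPM.

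Without overlap of the libraries, 4 other members were higher in KO at ZT18 but were not called. The share of all genes without overlap was not counted, so this count has no background to be read against. At an unadjusted p under 0.05 (edgeR) there were 5 of 10 members, against 4144 of 22798 genes. Hspb1 had 9.04, 11.0, 7.07 and 11.2 CPM in KO and 2.81, 2.28, 2.16 and 1.21 CPM in WT, a log2 difference of 2.19 ± 0.71 SE (adjusted p = 0.0860). It was called at ZT18 by DESeq2 (adjusted p = 0.0344), which called 3 members there, and also without the filter on low counts, with a replicate block, with only the groups compared and without KO ZT6 replicate 3 (adjusted p from 0.00126 to 0.629 over all alternatives). Dnajb1 had 82.1, 101, 79.7 and 95.9 CPM in KO and 68.1, 57.3, 65.2 and 55.3 CPM in WT (0.55 ± 0.25 SE, adjusted p = 0.227). Hspe1 had 60.5, 72.8, 63.0 and 64.3 CPM in KO and 49.0, 53.2, 46.3 and 41.9 CPM in WT (0.45 ± 0.21 SE, adjusted p = 0.232). For Hsp90aa1 the values were 542, 576, 528 and 586 CPM in KO and 451, 527, 475 and 528 CPM in WT (0.17 ± 0.19 SE, adjusted p = 0.686), so the lowest KO value was just above the highest WT value. Hspa8, Hsph1, Dnaja1 and Bag3 overlapped between the genotypes. Over the 10 members the median log2 difference was 0.46, against 0.00 over all genes tested, and 9 of 10 were above 0 when 49.6% of all genes were. Because the members vary together, these signs are not separate observations.

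With limma-voom neither Hspa1a nor Hspa1b was called at ZT18 (adjusted p = 0.219 for Hspa1a and 0.470 for Hspa1b), nor with the low-rRNA class as a covariate (0.301 and 0.340), and leaving out any 1 of the 8 libraries of ZT18 ended the Hspa1b call, with adjusted p from 0.0557 to 0.115. The Hspa1a call ended without KO ZT18 replicate 1, 2 or 4 or any 1 WT library of ZT18, with adjusted p from 0.0548 to 0.0940. All KO libraries of ZT18 are low-rRNA and no WT library of ZT18 is. Library totals at ZT18 ran from 30.7 to 39.0 M counts in KO and from 24.9 to 28.2 M in WT. Depth and genotype thus cannot be told apart at ZT18 either. In the other low-rRNA libraries Hspa1b was at 3.89 CPM in KO ZT6 replicate 7 and at 304, 3.52 and 2.74 CPM in WT ZT12 replicates 4, 5 and 6. Markers of mature oligodendrocytes also moved at ZT18: 4 of 9 tested were higher in KO (Mbp, Cldn11, Cnp and Mag, named after their values were seen), the summed level of the list was 560 to 754 CPM in KO and 321 to 377 CPM in WT, and Opalin, a marker of late oligodendrocytes, was at 0 in 31 of the 38 libraries. The microglia sum was 11963 to 16746 CPM in KO and 5588 to 14887 CPM in WT at ZT18, with 0 of 18 called. Of 7 red blood cell and 6 choroid plexus markers 0 were called at ZT18 by edgeR, and 7 and 5 had an unadjusted p under 0.05, all on the KO side. The red blood cell sum was 4651 to 7812 CPM in KO and 3091 to 3516 CPM in WT, and the choroid plexus sum 171 to 444 CPM in KO and 21.3 to 110.2 CPM in WT. Their part in the chaperone values was not tested.

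**Figure D5:**
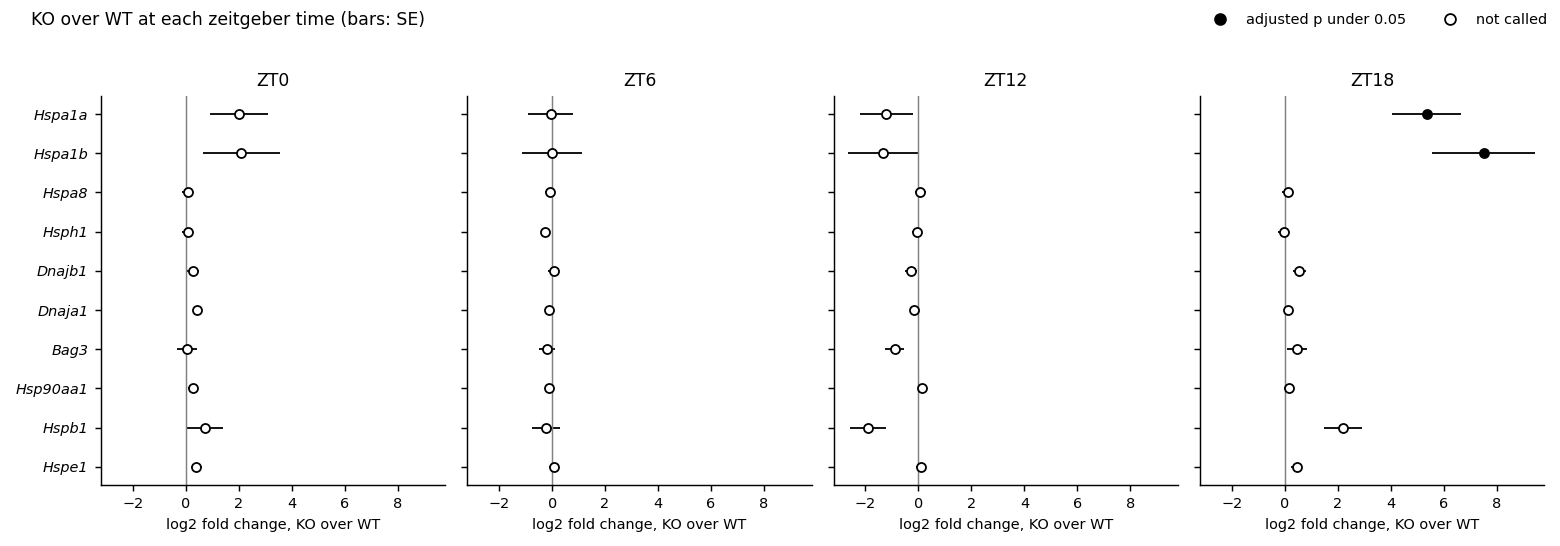
Log2 difference of KO over WT for each member at the 4 times, as the edgeR estimate with its SE; filled points have an adjusted p under 0.05. Only Hspa1a and Hspa1b at ZT18 are filled, at 5.35 and 7.50, and the SE of these genes exceeds 0.8 at every time.

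At ZT0 all 10 members were on the KO side of 0, with a median log2 difference of 0.32 against -0.05 over all genes, but none was called by edgeR, when 0.285% of all genes were. Hspa8 (0.07 ± 0.22 SE), Hsph1 (0.07 ± 0.20 SE) and Bag3 (0.04 ± 0.39 SE) lay near 0. The sign changed in 2 alternatives for Hspa8 and in 3 for Bag3. WT ZT0 replicate 1 had 692 CPM of Hspa8, against 1334 to 1483 CPM in the rest of its group. The members vary together, so their signs are not separate observations. At an unadjusted p under 0.05 there was 1 of 10, Dnaja1, against 4191 of 22798 genes, and DESeq2 and limma-voom called 0. Dnaja1 had 216, 206, 274 and 204 CPM in KO and 147.5, 159, 160 and 211 CPM in WT, with the WT range reaching into that of KO (log2 difference 0.41 ± 0.14 SE, adjusted p = 0.106). Hspa1a averaged 63.2 ± 46.3 CPM in KO and 15.7 ± 24.1 CPM in WT (2.01 ± 1.10 SE, adjusted p = 0.330). WT ZT0 replicate 4 had 51.9 CPM of Hspa1a and 88.2 CPM of Hspa1b, when the other 3 WT libraries of ZT0 had at most 5.01 and 1.16 CPM, and KO ZT0 replicate 2 was likewise alone in KO with 5.76 and 2.01 CPM. Without that WT library 3 members were higher in KO at ZT0: Hspa1a by 4.11 (adjusted p = 0.0419), Hspa1b by 6.43 (adjusted p = 0.0352) and Dnaja1 by 0.53 (adjusted p = 0.0182) on the log2 scale. In the same fit 2208 genes in all were called at ZT0, against 65 with the library.

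At ZT6, when the members were highest, no member differed between KO and WT by edgeR, DESeq2 or limma-voom, 0 had an unadjusted p under 0.05, against 1000 of 22798 genes, and 0.0132% of all genes were called. The estimates ran from -0.27 ± 0.16 SE for Hsph1 to 0.06 ± 0.17 SE for Hspe1, and their median was -0.10. The SE of the log2 difference was 0.85 for Hspa1a and 1.13 for Hspa1b. Without KO ZT6 replicates 6 and 7 still none was called, and 9 of 10 estimates were above 0, up to 0.50 for Hspa1b, with Hsph1 at -0.04. These libraries were left out after their low values were seen, which itself moves the estimates up. The direction in that fit is therefore not a result about the members.

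At ZT12 the direction was lower in KO for 7 of 10 members, with a median log2 difference of -0.23 against -0.01 over all genes. None was called by edgeR, when 5% of all genes were. At an unadjusted p under 0.05 there were 2 of 10, Hspb1 and Bag3, against 4576 of 22798 genes, about the same share; DESeq2 called 1, Hspb1, and limma-voom 0. Hspb1 had 0.875, 1.76, 2.74 and 3.87 CPM in KO at ZT12, and 5.09, 8.41, 7.79, 16.7, 6.55 and 7.47 CPM in WT at ZT12. All 4 KO values lie below all 6 WT values (log2 difference -1.90 ± 0.67 SE, adjusted p = 0.0917). Bag3 had 7.96, 12.6, 17.97 and 12.9 CPM in KO and 17.4, 21.8, 11.7, 38.3, 26.5 and 27.7 CPM in WT, with overlap at the low end of WT (-0.89 ± 0.36 SE, adjusted p = 0.141). The WT libraries of ZT12 with the highest Bag3, replicates 4 to 6, are the low-rRNA ones. Without the 8 low-rRNA libraries the difference was -1.61 for Hspb1 (adjusted p = 0.453) and -0.40 for Bag3, and 1 gene in all was called at ZT12.

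Averaged over the 4 times, no member was called by edgeR, when 0.0921% of all genes were. At an unadjusted p under 0.05 there were 3 of 10 (Hspa1a, Hspa1b and Hspe1), against 3444 of 22798 genes, and DESeq2 and limma-voom called 0. The mean log2 difference was 1.53 ± 0.51 SE for Hspa1a (adjusted p = 0.151), 2.07 ± 0.71 SE for Hspa1b (adjusted p = 0.158) and 0.24 ± 0.10 SE for Hspe1 (adjusted p = 0.216). Without WT ZT0 replicate 4 the Hspa1 pair was called, with 2.05 for Hspa1a (adjusted p = 0.0300) and 3.15 for Hspa1b (adjusted p = 0.0218). With 1 library left out, between 10 and 633 genes in all were called over the mean, against 21 with every library. The count over all genes for this fit is not given, so the calls have no background to be read against.

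The genotype difference itself varied with time for 3 of 10 members, Hspa1a (adjusted p = 0.0238), Hspa1b (adjusted p = 0.0430) and Hspb1 (adjusted p = 0.0266), when 9.19% of all genes were called in this test of interaction. For Hspa1b the log2 difference of KO over WT was 2.09 at ZT0, 0.01 at ZT6, -1.34 at ZT12 and 7.50 at ZT18. For Hspb1 it was 0.72, -0.23, -1.90 and 2.19 at the same times. For both, the highest of the 4 estimates was at ZT18 and the lowest at ZT12. None of the 3 was called with limma-voom, with the low-rRNA class as a covariate, or without the low-rRNA libraries, where no ZT18 difference can be had. With 1 library left out at a time, Hspa1b was called in 21 of 38 fits, Hspb1 in 33 and Hspa1a in 36, all but those without WT ZT18 replicate 3 or 4.

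Genes around the members were read from lists. Of 8 genes of heat shock factors and their regulators, Hsf1 itself had group means of 47.9 to 55.1 CPM in KO and 53.4 to 63.2 CPM in WT, and was not called in any comparison (mean log2 difference -0.17 ± 0.04 SE, adjusted p = 0.102). Ier5, an immediate early gene whose product helps to activate HSF1, averaged 511 ± 127 CPM in KO at ZT6 (SD, n = 7) and 468 ± 45.3 CPM in WT at ZT6 (SD, n = 5), its highest groups in both genotypes, with time called in KO (adjusted p = 9.78e-05) and in WT (adjusted p = 0.0124). At ZT12 it averaged 186 ± 49.6 CPM in KO and 406 ± 148 CPM in WT and was lower in KO (log2 difference -1.13 ± 0.26 SE, adjusted p = 0.00987). The genotype difference varied with time for Ier5 and Ier5l, and Hsf2 was called for time in KO (adjusted p = 0.0311).

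Among 40 other reported HSF1 targets, time was called for 21 in KO, of which 7 had their highest mean at ZT6 and 13 at ZT18, and for 7 in WT, of which 6 had it at ZT6. Sqstm1, an autophagy receptor, averaged 350 ± 98.2 CPM in KO and 412 ± 71.0 CPM in WT at ZT6, and Hmox1, which breaks down heme, 172 ± 77.0 CPM in KO and 191 ± 11.8 CPM in WT, each above its other groups. Zfand2a, which binds the proteasome under arsenite or heat, averaged 77.0 ± 32.99 CPM in KO and 92.7 ± 15.4 CPM in WT at ZT6, against at most 38.2 CPM in KO and 39.7 CPM in WT at the other times. Between the genotypes, 3 of the 40 were higher in KO at ZT18: Stub1, a ubiquitin ligase that works with HSP70, by 0.45 ± 0.11 SE (adjusted p = 0.0219), and the HSP90 cochaperones Fkbp4 by 0.43 ± 0.12 SE (adjusted p = 0.0443) and Cdc37 by 0.41 ± 0.11 SE (adjusted p = 0.0445). At ZT12 5 of the 40 were called, 1 higher in KO and 4 lower in KO (Cdc37, Ubb, Ahsa1 and Stip1). At ZT0, at ZT6 and over the mean, 0 of 40 were called by edgeR, and 17, 2 and 13 had an unadjusted p under 0.05.

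Chaperones outside the cytosolic heat shock response were less uniform. None of the 8 TRiC subunits, which form the cytosolic chaperonin, was called in any comparison by edgeR, although at an unadjusted p under 0.05 there were 8 of 8 on the KO side at ZT0 and over the mean, 0 at ZT6, 2 at ZT12 and 3 at ZT18. Of 14 chaperones of the endoplasmic reticulum, time was called for 6 in KO, of which 4 had their highest mean at ZT6, and for 3 in WT, all highest at ZT6. Between KO and WT 0 of the 14 were called, and at most 3, at ZT12, had an unadjusted p under 0.05. The leading gene, Hspa5, the HSP70 of that compartment, averaged 1673 ± 505 CPM in KO and 1946 ± 186 CPM in WT at ZT6, against at most 927 CPM in KO and 1013 CPM in WT at the other times (adjusted p 3.03e-05 in KO and 3.67e-06 in WT). The cold-inducible RNA-binding gene Cirbp was called for time in KO (adjusted p = 0.0199) and Rbm3 was not (adjusted p = 0.184); in WT neither was called.

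Of 23 immediate early genes, time was called for 22 in KO, of which 19 had their highest mean at ZT6, and for 14 in WT, of which 11 had it at ZT6 and 3 at ZT12. In the genotype comparisons 10 of 23 were lower in KO at ZT12 and 8 of 23 were higher in KO at ZT18, among them Atf3, a stress-induced transcription factor, with 379 ± 116 CPM in KO and 149 ± 49.6 CPM in WT at ZT18 (log2 difference 1.35 ± 0.34 SE, adjusted p = 0.0305), and Nr4a1, an orphan nuclear receptor, with 295 ± 28.6 CPM in KO and 86.2 ± 21.3 CPM in WT (1.78 ± 0.33 SE, adjusted p = 0.00866). The part of this response in the chaperone values was not tested.

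The members varied together across libraries. Over their 45 pairs, Pearson's r of log2 CPM across the 38 libraries ran from 0.615 (Hspa1b and Hspa8) to 0.983 (Hspa1a and Hspa1b) with a median of 0.841. After subtraction of each group's mean it ran from 0.449 to 0.971 with a median of 0.781, so the members also varied together among libraries of the same genotype and time. These are descriptions over points that share library, depth and cell composition. Among 12735 other genes with a mean log2 CPM over 1, those most like the members' mean profile were Zfand2a (r = 0.939), Nfil3, a transcription factor of the clock's output (0.929), Rasgef1b, an exchange factor of small GTPases (0.927), Fth1, the ferritin heavy chain (0.926), and Coq10b, a mitochondrial coenzyme Q-binding protein (0.918). With group means removed they were Zfand2a (0.883), Gadd45g, a stress-response gene (0.882), Nfil3 (0.866), Coq10b (0.829) and Fth1 (0.828). Nfil3 averaged 26.8 ± 4.71 CPM in KO and 12.5 ± 0.701 CPM in WT at ZT18, a log2 difference of 1.10 ± 0.31 SE (adjusted p = 0.0488).

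Reads of overlapping genes bear on Hspa1a, Dnaja1, Hspe1 and Hspa8. For overlaps on opposite strands this depends on the strand setting used in counting, which was not stated in any source at hand. Hspa1a shares 564 exonic bases, 19.0% of its own, with Gm20481 on the opposite strand, which had 0 counts in every library. Dnaja1 shares 7.05% of its exonic bases with Smu1, and Hspe1 shares 7.60% with Hspd1, both counted in every library. Smaller parts of Dnaja1 are shared with Gm6297 (2.89%) and, on the same strand, with Mir207 (0.858%). Hspa8 shares 86, 86 and 90 exonic bases with Snord14c, Snord14d and Snord14e on its own strand, each with 0 counts in every library.

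Markers of other cell types were read as whole lists. At ZT12 2 of 12 OPC markers (Neu4 and Cspg4) and 1 of 9 oligodendrocyte markers (Myrf) were lower in KO, and beside these and the 4 oligodendrocyte markers at ZT18, no marker of OPCs, oligodendrocytes, microglia, astrocytes, neurons, endothelial, mural, choroid plexus or red blood cells was called between KO and WT at any time by edgeR. At an unadjusted p under 0.05 there were 9 of 12 OPC markers at ZT12, and 7 of 7 red blood cell, 7 of 9 oligodendrocyte and 5 of 6 choroid plexus markers at ZT18. No other list had more than 4 at any time. Over the day in KO, time was called for 8 of 10 astrocyte, 12 of 14 neuron, 6 of 8 endothelial, 3 of 8 mural, 3 of 6 choroid plexus, 7 of 7 red blood cell and 7 of 9 oligodendrocyte markers, none with its highest mean at ZT6, and for 5 of 12 OPC markers, 1 of them highest at ZT6. In WT it was called for 7 of 10 astrocyte markers, all highest at ZT18, 3 of 14 neuron markers, none highest at ZT6, and 5 of 7 red blood cell markers, all highest at ZT12.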

How the data were processed

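Gene counts were deposited by the authors as 1 table of raw read counts for 38 libraries; per the submitters' processing notes, fastp, HISAT2 2.0.5, featureCounts 1.5.0-p3 and the GRCm38 (mm10) build were used. From these counts, edgeR 4.0.16 (R 4.3.3) fitted 1 quasi-likelihood model with the 8 genotype-by-time groups to all libraries, after TMM normalisation and edgeR's own filter on low counts. Tests compared KO with WT at each time, over the mean of the times and for interaction with time, and the times within each genotype. P-values were adjusted by the Benjamini-Hochberg method over all genes tested, and those at an adjusted p under 0.05 were called. SE was derived from the test, as the size of the log2 difference divided by the square root of its quasi-likelihood F. CPM use the TMM-scaled library sizes, and RPKM divide CPM by the deposited gene length. Other genes named are, per list of heat shock, chaperone or immediate early genes and comparison, up to 4 with the smallest p, and the 5 whose log2 CPM correlated best with the members' mean profile, with and without group means; markers were named after their values were seen. The members and lists were chosen with earlier results of these data known. Each library is a separate pool of mice, and counting error only is covered by depth. Promoters are RefSeq's, read with Biopython 1.88. The scripts were tested on simulated data. DESeq2 1.42.0, limma 3.58.1 (voom) and other filters, scalings and sets of libraries served as alternatives.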

Additional observations from a re-analysis of the deposited data

Results flagged for a closer look

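Dixon's test at 95% was run for each member in each genotype-by-time group of 4 to 7 libraries, which made 80 tests. In 12 of them, 1 library stood apart from the rest of its group in CPM. Chance alone flags about 1 independent test in 20. The members vary together across libraries, so these tests are not independent and the count cannot be held against that rate. KO ZT6 replicate 3 stood above its group with 1849 CPM of Hspa1a, 3017 CPM of Hspa1b and 184 CPM of Hspb1. WT ZT6 replicate 5 did so with 1192 CPM of Hspa1a, 1899 CPM of Hspa1b, 213 CPM of Dnajb1 and 127 CPM of Bag3. These libraries also held the highest microglia marker sums of their groups, 20786 and 16070 CPM, and the part of microglia was not tested. WT ZT0 replicate 4 stood above its group with 51.9 CPM of Hspa1a and 88.2 CPM of Hspa1b, and its microglia sum of 7109 CPM was within the range of its group. The others were KO ZT0 replicate 3 with 274 CPM of Dnaja1, WT ZT12 replicate 4 with 16.7 CPM of Hspb1 and, below its group, WT ZT0 replicate 1 with 47.5 CPM of Dnajb1.

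The difference between KO and WT itself differed between times for 3 members by the interaction test of edgeR: Hspa1a (adjusted p = 0.0238), Hspa1b (adjusted p = 0.0430) and Hspb1 (adjusted p = 0.0266).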

How the results depend on the processing

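No member changed the sign of a called difference under any alternative run. The count of members called at ZT12 was 0 and became 1 with DESeq2 and 1 with a replicate block. At ZT18 it was 2 and became 0 with limma-voom, 0 with the low-rRNA class as a covariate, 1 of 9 with Hspa1a and Hspa1b summed, and 5 with only the groups compared. Over the alternatives that kept every library of ZT18, 2 to 2393 genes in all were called at ZT18. The moves in members there cannot be told from a general move in calls. For interaction it was 3 and became 0 with limma-voom, 0 with the covariate and 0 without the 8 low-rRNA libraries. For time in KO it was 8 and became 5 with limma-voom, and for time in WT it was 9 and became 7. The causes were not tested. Leaving out each library in turn gave 0 to 3 members at ZT0, 0 to 0 at ZT6, 0 to 1 at ZT12, 0 to 3 at ZT18, 0 to 2 over the mean, 0 to 4 for interaction, 6 to 9 for time in KO and 8 to 10 for time in WT. At ZT18 the count was 0 without WT ZT18 replicate 1, 2, 3 or 4 or KO ZT18 replicate 1, 2 or 4, 1 without KO ZT18 replicate 3 and 3 without KO ZT6 replicate 3. For interaction it was 1 without WT ZT12 replicate 4, WT ZT18 replicate 3 or KO ZT12 replicate 1 or 2, and 0 without WT ZT18 replicate 4.

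Counts over all genes moved more: 65 genes at ZT0 (1 to 2208 without 1 library, 1 to 1018 otherwise), 1139 at ZT12 (259 to 1357, 1 to 1646), 488 at ZT18 (44 to 761, 2 to 2393), 21 over the mean (10 to 633, 5 to 244), 2096 for interaction (1049 to 3175, 0 to 3166), 5001 for time in KO (3632 to 5301, 2050 to 6457), 1120 for time in WT (661 to 1449, 724 to 1779) and 3 at ZT6 (2 to 5, 1 to 4). Libraries of the same replicate number showed little shared deviation (16 pairs, r from -0.0908 to 0.24, 3 over 0.1). The main model used no pairing by replicate number. These values cannot exclude that libraries of the same number were collected together. Hspb1 was called with the block at ZT12 (-2.26, adjusted p = 0.0360) and at ZT18 (2.18, adjusted p = 0.0379). No ZT18 value exists without the low-rRNA libraries, and only the groups compared could not be fitted for the mean and interaction.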
